A study of Arabidopsis thaliana with 3 samples.

Results

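Heat shock proteins and chaperones were followed in seedlings of *Arabidopsis thaliana* kept on hydrogen peroxide, as the genes of the deposited *dss1(I)* and WT table whose description named them. The words looked for were heat shock, chaperone, chaperonin, DnaJ, HSP, BAG family or peptidyl-prolyl, in genes whose domain column was empty, and 17 of the 2762 genes of the table met the rule. Of these 17 genes, 12 were small heat shock proteins, 1 was an HSP90-like gene, 2 were DnaJ genes, 1 was a chaperonin and 1 was a copper chaperone. Of the 12 small ones, 10 had a numbered heat shock protein name, and each of these had fewer reads in *dss1(I)* than in WT. The 2 unnamed HSP20-like genes, the HSP90-like gene and 1 DnaJ gene had more. Of the 555 other genes of the table in the length range of the numbered ones, 499 (89.9%) were also lower in *dss1(I)*.

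The *dss1(I)* group was 1 library from a homozygous line made with CRISPR/Cas9 that carries the indel *dss1(I)del25* in *AtDSS1(I)*, the gene of a small acidic protein that works with the proteasome and with the recombination protein BRCA2. The WT group was 1 library of Columbia-0. Both had grown for 14 days and then spent 3 days on 10 mM hydrogen peroxide, so that no library shows the genes without the agent. Each library held poly-A RNA of whole seedlings combined over 3 independent experiments, and *dss1(V)* seedlings were not analysed here. As each genotype is 1 library, no difference here has a replicate check. In RNA of whole seedlings, fewer cells of a type and less RNA per cell cannot be told apart.

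The table holds only genes that the authors had already called as different by at least 2-fold, so that the size of a ratio in it is no finding and the direction is what can vary. A log2 ratio here is that of *dss1(I)* over WT, from scaled counts (reads brought to a common library size) with a pseudocount of 1, so that a negative value means fewer reads in *dss1(I)*. The targeted gene was lower in the library of its mutant. *AtDSS1(I)* (AT1G64750) had 233 reads in *dss1(I)*, against 807 in WT (log2 ratio -2.0). Reads outside an indel are counted whether or not it disrupts the protein, so this level alone does not test the genotype. Its paralogue *AtDSS1(V)* (AT5G45010), which is not the gene edited in this line, had 21 reads in *dss1(I)*, against 73 in WT (log2 ratio -1.96). The 2 genes are 984 and 937 bases long. Of the 336 genes of 813 to 1084 bases outside the members, 90.2% were lower in *dss1(I)*. The fall is thus not particular to the edited gene. The library totals behind the FPKM values (reads per kilobase of gene and 1000000 reads of the library) were 11033843 for *dss1(I)* and 9394592 for WT.

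Heat shock proteins hold damaged or unfolded proteins until they can be refolded or removed. The small ones carry an alpha-crystallin domain, form large assemblies, bind unfolding proteins without using ATP, and in plants are sorted into classes by cell compartment. HSP70 proteins refold these clients with DnaJ partners that stimulate their ATPase, HSP90 proteins mature signalling clients, HSP100 proteins thread aggregates apart, and chaperonins enclose single proteins in a chamber. Their genes are switched on by heat shock factors, which bind inverted repeats of the letters GAA in promoters and respond to heat and to hydrogen peroxide.

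The promoters of the small class are shown first, because the motif of the heat shock factors is the feature these genes are known for. A pair of inverted units was searched for as GAANNTTC or TTCNNGAA, which read the same on both strands, in the 250 bases before the annotated gene start. At least 1 such pair lay before 4 of the 10 numbered small heat shock protein genes (40.0%). It lay before 6 of all 17 members (35.3%), 485 of the 2744 nuclear genes of the table (17.7%) and 4432 of all 27443 nuclear protein-coding genes (16.1%). The windows below are the 200 bases before the gene start, read 5′ to 3′ on the gene's strand from the RefSeq TAIR10.1 assembly, with each pair in capitals. *HSP26.5* (chr1:19575867-19576066, minus strand), *HSP21* (chr4:13819972-13820171, minus strand) and *HSP15.7* (chr5:14968558-14968757, plus strand) hold 1 pair each. *HSP17.6* (chr5:3883112-3883311, minus strand), shown for contrast, holds none.
HSP26.5: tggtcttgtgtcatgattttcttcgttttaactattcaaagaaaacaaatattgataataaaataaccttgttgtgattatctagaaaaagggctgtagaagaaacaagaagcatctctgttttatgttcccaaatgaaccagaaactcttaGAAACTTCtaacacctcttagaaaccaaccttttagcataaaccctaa
HSP21: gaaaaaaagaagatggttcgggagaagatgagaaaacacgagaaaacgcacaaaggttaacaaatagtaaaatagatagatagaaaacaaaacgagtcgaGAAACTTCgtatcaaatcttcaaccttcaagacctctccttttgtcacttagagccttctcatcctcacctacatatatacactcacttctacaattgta
HSP15.7: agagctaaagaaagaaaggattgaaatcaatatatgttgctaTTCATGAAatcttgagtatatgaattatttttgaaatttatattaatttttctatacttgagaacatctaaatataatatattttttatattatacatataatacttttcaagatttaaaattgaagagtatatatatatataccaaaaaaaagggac
HSP17.6: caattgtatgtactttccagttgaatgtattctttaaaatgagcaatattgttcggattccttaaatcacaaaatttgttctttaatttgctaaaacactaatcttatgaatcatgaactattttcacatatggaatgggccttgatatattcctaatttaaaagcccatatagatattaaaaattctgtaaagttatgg

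Another annotated gene reaches into the window of *HSP17.7*, so only the 30 bases next to its start are shown (chr5:3884839-3884868, minus strand). Its pair begins 22 bases before the gene start, the pair nearest to a start among the members. In *HSP26.5* the pair begins 48 bases before the start, in *HSP21* 100 bases and in *HSP15.7* 158 bases.
HSP17.7: caagacgtTTCTCGAAcgttagagaagcgc

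Annotated gene starts can lie well before the first base of most transcripts, and the start of *HSP18.1* lies 309 bases before its start codon. A search of the 400 bases before the start codon, chosen after the data were seen, found a pair in 7 of the 10 numbered genes (70.0%). The same search found one in 794 of the 2680 protein-coding nuclear genes of the table (29.6%) and in 7836 of 27443 nuclear protein-coding genes (28.6%). A run of 3 alternating units, the form that a heat shock factor trimer binds, occurred in *HSP18.1* alone among the 17 members, beside 0.955% of the nuclear protein-coding genes. The 29 bases around it (chr5:24062388-24062416, plus strand) begin their capitals 236 bases before the start codon and 73 bases after the annotated gene start. A match describes letters in a window, and no binding was measured here.
HSP18.1: caacaaacGAAACTTCCTGAAatgccaag

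**Figure D1:**
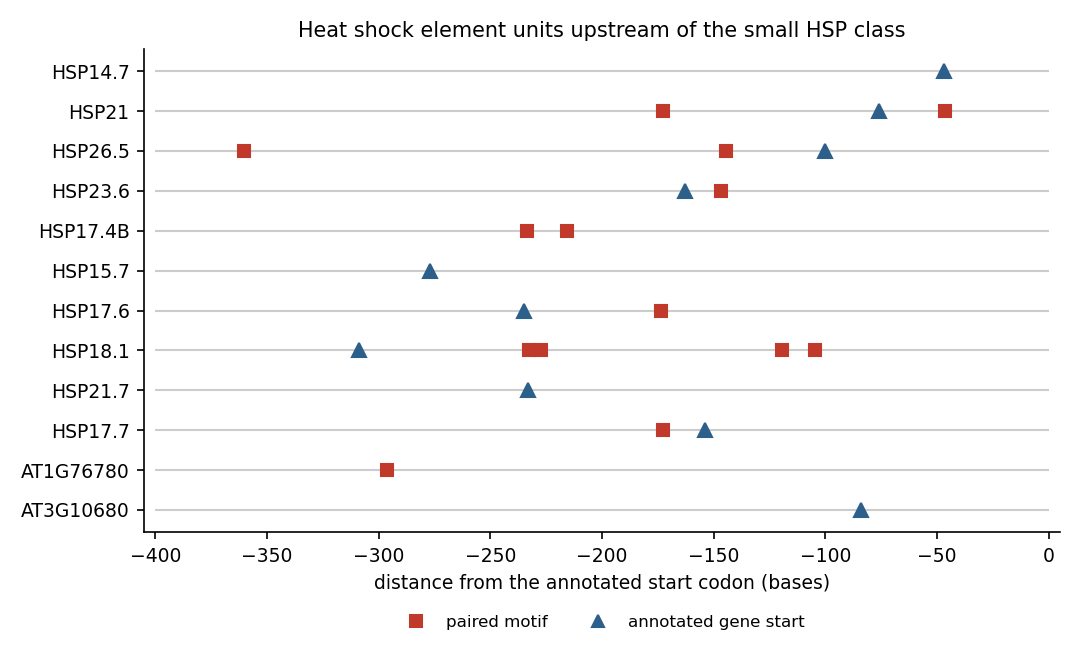
Positions of paired heat shock element units (squares) before the annotated start codon of the 12 genes of the small class, with triangles at the annotated gene start where it lies within 400 bases. *HSP18.1* holds 4 pairs, of which the first 2 overlap as 3 units, while *HSP14.7*, *HSP15.7*, *HSP21.7* and AT3G10680 hold none in this window.

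The 10 numbered small heat shock protein genes together took 347 reads in *dss1(I)*, against 690 in WT, or 31.4 per 1000000 reads of the library in *dss1(I)* and 73.4 in WT. After scaling, the log2 ratio of the sums was -1.21, with an exact Clopper-Pearson 95% interval of -1.40 to -1.02. The interval covers counting error only, because 1 library per genotype gives no spread between samples. Each of the 10 genes entered the table as already called at 2-fold or more. With all of them lower, a sum below -1 was fixed beforehand, and the interval is no evidence of a fall past 2-fold. The reads also carry no molecular identifiers and are not counts of separate molecules. *HSP17.7* and *HSP21.7* held 57.3% of these reads in *dss1(I)* and 50.6% in WT. Without this pair of genes the log2 ratio of the sums was -1.42 (interval -1.71 to -1.14). As each of the 10 genes was lower by itself, leaving genes out could not turn the direction of the sum.

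The most abundant gene of the small class in both libraries was of a cytosolic class. *HSP17.7* (AT5G12030, chromosome 5, 3883957 to 3884838), of class II, had 106 reads and 10.9 FPKM in *dss1(I)*, against 185 reads and 22.3 FPKM in WT. Its neighbour *HSP17.6* (AT5G12020, chromosome 5, 3882231 to 3883111), also of class II, had 45 reads and 4.63 FPKM in *dss1(I)*, against 86 reads and 10.4 FPKM in WT. These genes of 1 exon each lie 845 bases apart, and the longest stretch their transcripts share is 33 bases, so that few reads could belong to either. Their log2 ratios, -1.01 (interval -1.38 to -0.67) and -1.13 (interval -1.71 to -0.62), had overlapping intervals. RefSeq names the first *HSP17.6A* and the second *HSP17.6II*.

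The class I and class III genes stood lower in level. *HSP18.1* (AT5G59720, *HSP18.2* in RefSeq), the class I gene with the 3 alternating units shown above, had 22 reads and 2.04 FPKM in *dss1(I)*, against 42 reads and 4.57 FPKM in WT. Its log2 ratio of -1.11 had a wide interval of -1.97 to -0.37. *HSP17.4B* (AT1G54050), a class III gene whose protein is nuclear, had 31 reads and 2.52 FPKM in *dss1(I)*, against 75 reads and 7.17 FPKM in WT. The log2 ratio of *HSP17.4B* was -1.46 (interval -2.15 to -0.87).

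*HSP21.7* (AT5G54660), described as class VI, was second to *HSP17.7* in level. It had 93 reads and 8.62 FPKM in *dss1(I)*, against 164 reads and 17.8 FPKM in WT, a log2 ratio of -1.03 (interval -1.42 to -0.66). *HSP14.7* (AT5G47600) was the least abundant of the numbered genes. It had 1 read in *dss1(I)*, against 9 in WT, and its log2 ratio of -2.48 with an interval of -8.84 to -0.54 says little beyond the direction. Its scaled count stayed below 10 in both libraries, so it is left out of the counts of called members.

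The genes for organelle proteins were low in both libraries. *HSP23.6* (AT4G25200), which acts in mitochondria, had 28 reads and 2.42 FPKM in *dss1(I)*, against 68 reads and 6.91 FPKM in WT, a log2 ratio of -1.46 (interval -2.19 to -0.84). The other mitochondrial gene, *HSP26.5* (AT1G52560), had 7 reads in *dss1(I)*, against 20 in WT (log2 ratio -1.59). *HSP21* (AT4G27670), which protects chloroplast membranes and photosystem proteins in heat, had 5 reads in *dss1(I)*, against 19 in WT (log2 ratio -1.93). *HSP15.7* (AT5G37670), sent to peroxisomes, where hydrogen peroxide is made and broken down, had 9 reads in *dss1(I)*, against 22 in WT (log2 ratio -1.40). Cytosol, nucleus, mitochondrion, chloroplast and peroxisome were thus each represented among the lower genes.

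Larger ratios in this family went with fewer reads. The 4 numbered genes with fewer than 25 reads in WT had log2 ratios of -2.48 to -1.40, and the 6 others -1.46 to -1.01. Counting intervals spanned 2.48 to 8.31 log2 units in these 4 genes and 0.71 to 1.59 in the 6 others. The same was seen outside the family, where the 261 other lower genes with fewer than 25 WT reads had a median log2 ratio of -2.43 and the 650 with 25 to 200 WT reads one of -1.40. No order among the small heat shock proteins by ratio can be read from these counts.

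The HSP20-like genes without a number went the other way, on few reads. AT3G10680 had 14 reads and 0.815 FPKM in *dss1(I)*, against 1 read and 0.0684 FPKM in WT, a log2 ratio of 2.75 with an interval of 0.87 to 8.99. AT1G76780 had 19 reads and 0.247 FPKM in *dss1(I)*, against 4 reads and 0.0611 FPKM in WT, a log2 ratio of 1.81 with an interval of 0.44 to 4.05. Both are longer than any numbered member, at 1557 and 6974 bases. Annotated genes on the opposite strand (AT1G09673 and AT1G76790) overlap AT1G76780, and the longest shared stretch, with AT1G09673, is 1349 bases. Since the counting is not stated to use strand, reads in the overlapping parts cannot be told apart.

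**Figure D2:**
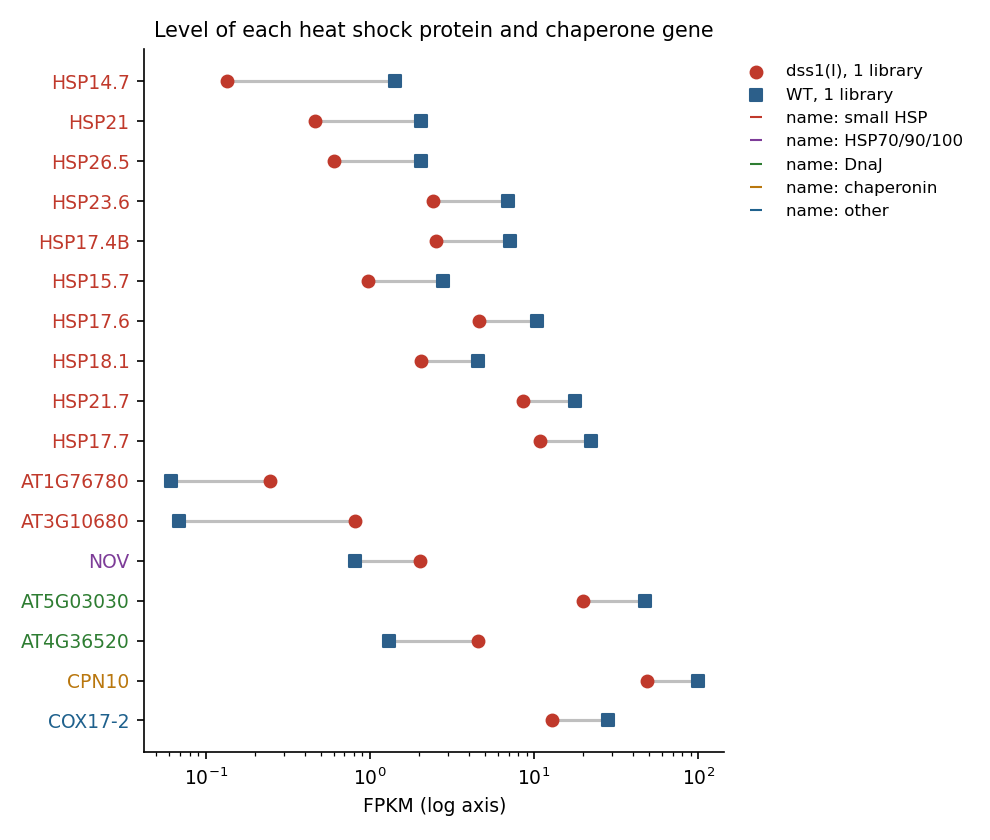
FPKM of each of the 17 members in the *dss1(I)* library (circles) and the WT library (squares), on a log axis, grouped by class. The 13 lower members lie to the left in *dss1(I)* and the 4 higher ones to the right, and *CPN10* is the most abundant in both libraries, at 48.6 FPKM in *dss1(I)* and 99.4 in WT.

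The 1 member of the HSP70, HSP90 and HSP100 class was higher in *dss1(I)*. *NOV* (AT4G13750, chromosome 4, 7975064 to 7987687), NO VEIN, is a nuclear protein needed for leaf veins and for the stem cells of the root, and it is listed here for an ATPase fold like that of HSP90. It had 189 reads and 2.03 FPKM in *dss1(I)*, against 64 reads and 0.807 FPKM in WT, a log2 ratio of 1.33 (interval 0.93 to 1.78). Its gene length of 8446 bases is the longest of the members. No HSP70 gene and no HSP90 chaperone is among the members, so the refolding machinery that takes over clients of the small heat shock proteins is not covered by these values.

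The pair of DnaJ members split. AT4G36520, a long DnaJ-domain gene of 4414 bases, had 222 reads and 4.56 FPKM in *dss1(I)*, against 54 reads and 1.302 FPKM in WT. Its log2 ratio of 1.80 had an interval of 1.39 to 2.28, the only interval of a member wholly past 2-fold. AT5G03030, a short one of 975 bases, had 213 reads and 19.8 FPKM in *dss1(I)*, against 432 reads and 47.2 FPKM in WT, a log2 ratio of -1.23 (interval -1.48 to -0.998). Genes on the opposite strand (AT5G00900 and AT5G03020) overlap AT5G03030.

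The members outside these classes were both lower and both were among the 3 most abundant. *CPN10* (AT1G14980), the lid of the mitochondrial chaperonin chamber, had 687 reads and 48.6 FPKM in *dss1(I)*, against 1196 reads and 99.4 FPKM in WT. Its log2 ratio of -1.02 (interval -1.15 to -0.88) is the most precise of the members. AT1G14990 overlaps it on the same strand. *COX17-2* (AT1G53030), which hands copper to cytochrome c oxidase and folds no protein, had 81 reads and 12.8 FPKM in *dss1(I)*, against 153 reads and 28.4 FPKM in WT, a log2 ratio of -1.12 (interval -1.54 to -0.74).

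Counted over the 16 members that reached a scaled count of 10 in either library, 12 were lower in *dss1(I)* by a log2 ratio of -1 or less and 4 were higher by 1 or more. Over the 2620 genes of the table with such a count, 51.0% were lower and 48.1% were higher. The median log2 ratio was -1.12 over the 16 members and -1.02 over the 2620 genes. Few genes of the table lie between -1 and 1, so its median marks the edge of the lower side and is no centre. Near-equal medians therefore do not show that the members shift like the table. Of the 17 genes, 13 were below 0 and 4 above.

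Direction in this table went with gene length, and that sets what the counts above can show. In 8 groups of genes by length, 90.2% of the 336 other genes of 813 to 1084 bases were lower in *dss1(I)*, and 0.292% of the 342 other genes of at least 4145 bases. All 9 members in the group of 813 to 1084 bases were lower, and all 3 members in the longest group were higher. The 10 numbered small heat shock proteins span 671 to 1113 bases. Among the 555 other genes of that length range, 499 (89.9%) were lower in *dss1(I)*, with a median log2 ratio of -1.52 over those 499.

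Read against genes as long as themselves, the members had much the direction of the table. Of the 17 members, 13 were lower (76.5%), beside a mean of 71.9% for the other genes of the members' own length groups. For the small class the shares were 83.3% and 80.2%. For the numbered genes they were 100% and 89.1%. Genes of 1 pair of libraries are not replicates, so no interval is set on the shares of members. That all 10 were lower is therefore close to the share of short genes in general, and is no result about heat shock proteins. The part of gene length in the ratios was not tested. AT3G10680 was the 1 member against the prevailing direction of its group, in which 71.8% of the other genes were lower.

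**Figure D3:**
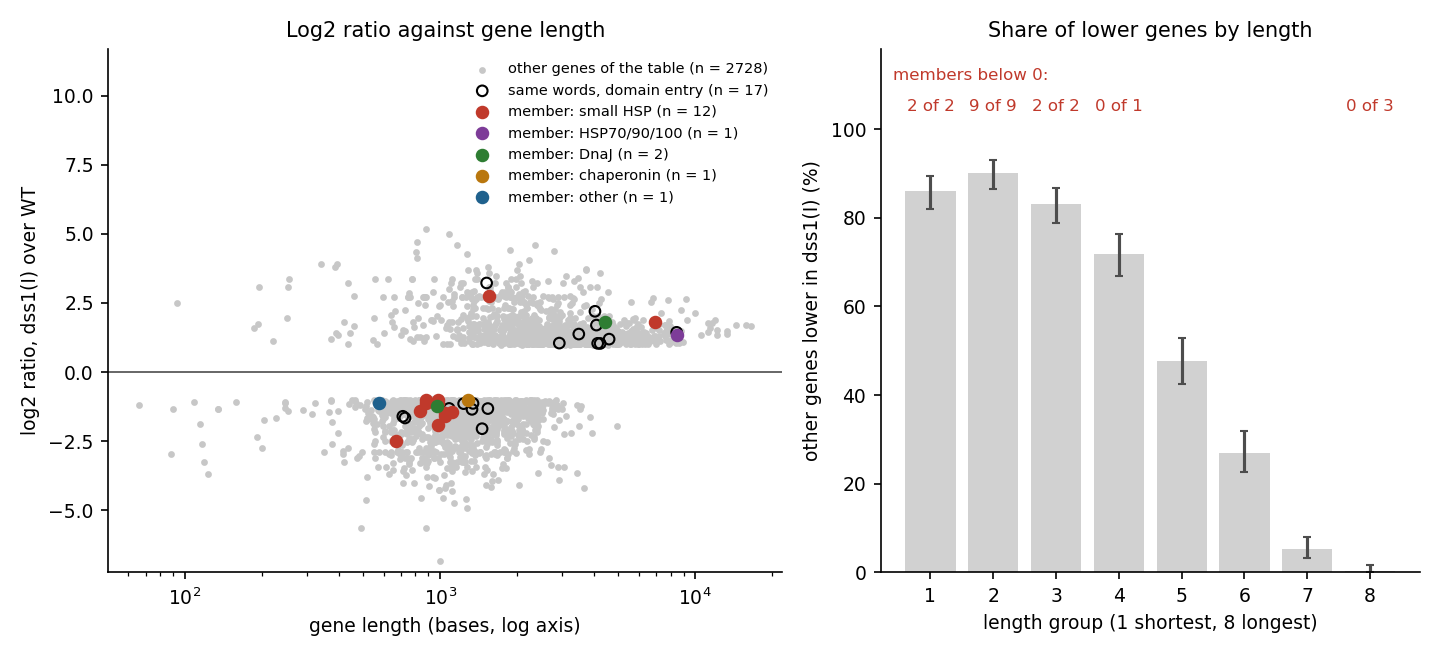
Left, log2 ratio of *dss1(I)* over WT against gene length (log axis) for the members, the 17 genes with the same words and a domain entry, and the other 2728 genes of the table. Right, percent of other genes lower in *dss1(I)* in 8 length groups (bars, Wilson 95% intervals), with the members lower in each group above the bars. Genes are not replicates, so these intervals do not measure spread between samples. The short members sit with the lower genes and the long ones with the higher genes.

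The domain column, named for transcription factor families, holds Pfam-type domain names in 1005 genes of the table, so the rule left out 17 further genes that have the same words. Of the 16 that reached a scaled count of 10, 8 were lower and 8 higher, beside 51.0% and 48.1% of the table. Of all 17, 47.1% were lower, beside a mean of 43.9% for the genes of their own length groups. None of them is a small heat shock protein.

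The 4 peptidyl-prolyl isomerases among these 17, enzymes that turn proline bonds during folding, were all lower, and 3 of them were more abundant than any member in both libraries. *FKBP12* (AT5G64350) had 2727 reads and 346 FPKM in *dss1(I)*, against 7115 reads and 1061 FPKM in WT, a log2 ratio of -1.60 (interval -1.67 to -1.54). *CYP19-1* (AT2G16600, *ROC3* in RefSeq), a cyclophilin, had 4686 reads and 319 FPKM in *dss1(I)*, against 10263 reads and 820 FPKM in WT. *CYP18-3* (AT4G38740, *ROC1*), another cyclophilin, had 1583 reads in *dss1(I)*, against 3005 in WT, and *CYP19-2* (AT2G21130) had 54 reads in *dss1(I)*, against 117 in WT. The log2 ratios of these 3 cyclophilin genes were -1.35, -1.14 and -1.32. Their genes are short, at 714 to 1333 bases for the 4. In the length group of *FKBP12* 86.0% of the genes outside the members were lower, and in that of the 3 cyclophilins 83.1%. *FKBP12*, *CYP19-1* and *CYP18-3* are 3 of the 4 genes among these 17 whose interval lay wholly below -1.

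DnaJ genes were on both sides, and the higher ones were mostly longer. Of the 11 DnaJ genes with a domain entry, 4 were below 0, at 728 to 1538 bases, and 7 above 0, at 1521 to 8455 bases. *GRV2* (AT2G26890), which works in transport from endosomes to the vacuole and shapes the response to gravity, had 1183 reads and 12.7 FPKM in *dss1(I)*, against 375 reads and 4.72 FPKM in WT, a log2 ratio of 1.44. *TPR16* (AT5G12430) had 498 reads in *dss1(I)*, against 187 in WT (log2 ratio 1.19). AT5G27240 had 116 reads in *dss1(I)*, against 21 in WT (log2 ratio 2.20). AT4G19590 had 9 reads in *dss1(I)*, against 0 in WT. With a floor of 3 reads put in for the WT library it was 2.58-fold higher. Its counting interval started at a log2 ratio of 0.76. On the lower side, AT2G33735 had 25 reads in *dss1(I)*, against 70 in WT (log2 ratio -1.66).

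The HSP100 type was represented by *CLPC2* (AT3G48870, *HSP93-III*), a chloroplast chaperone that helps to pull in imported proteins and feeds the Clp protease. It had 1639 reads and 42.5 FPKM in *dss1(I)*, against 543 reads and 16.5 FPKM in WT, a log2 ratio of 1.37 (interval 1.24 to 1.52), and AT3G48860 overlaps it on the other strand. *HIRA* (AT3G44530), which loads a histone variant onto DNA, had 233 reads in *dss1(I)*, against 97 in WT (log2 ratio 1.04). Both genes are long, at 3495 and 4144 bases.

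**Figure D4:**
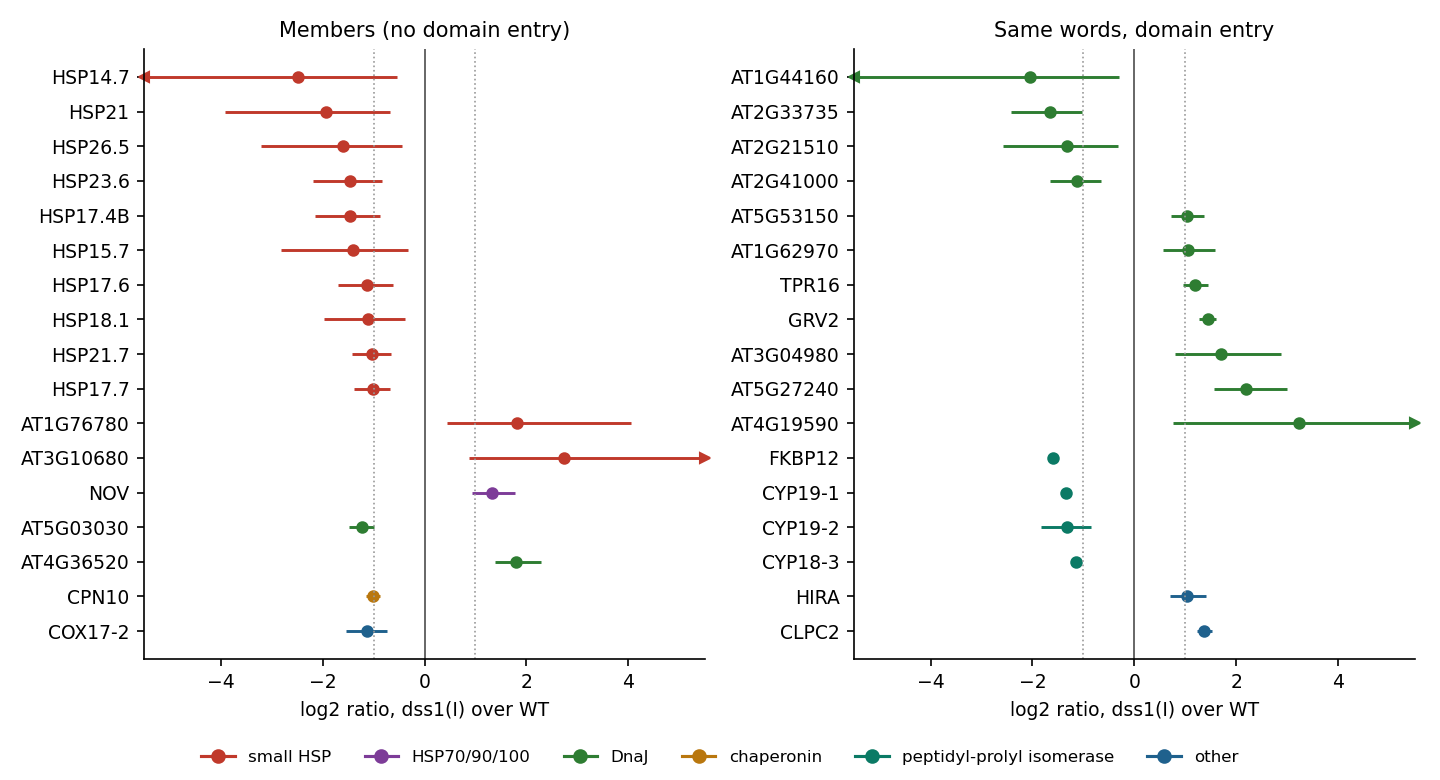
Log2 ratio of *dss1(I)* over WT (points) with exact 95% counting intervals (lines, arrowheads where they leave the axis) for the 17 members, left, and the 17 genes with the same words and a domain entry, right. Dotted lines mark log2 ratios of -1 and 1. The numbered small heat shock proteins and the peptidyl-prolyl isomerases all lie below 0, as do most other genes of their length groups.

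Genes of the heat response were compared from a list of 26 genes by identifier and the heat shock factors of the table. Chaperones and enzymes stand in the list beside regulators. In the table are 4 of the 26 and 2 heat shock factors, none of them a member, and all 6 were lower, beside 51.0% of the table. *HSFA6A* (AT5G43840), a heat shock factor, had 0 reads in *dss1(I)*, against 15 in WT. With a floor of 3 reads put in for the *dss1(I)* library it was 5.82-fold lower. Its counting interval ended at a log2 ratio of -2.06. *HSFA4A* (AT4G18880), a heat shock factor known to respond to hydrogen peroxide, had 159 reads and 6.14 FPKM in *dss1(I)*, against 356 reads and 16.1 FPKM in WT, a log2 ratio of -1.37 (interval -1.66 to -1.11). At 2347 bases it stands in a length group where 26.96% of the other genes were lower. The 5 others are 1056 to 1651 bases long, in length groups where 90.2%, 83.1% and 71.8% of the other genes were lower.

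Of the listed genes, *DREB2A* (AT5G05410), a drought and heat regulator that acts upstream of a heat shock factor, had 60 reads in *dss1(I)*, against 115 in WT (log2 ratio -1.14). *BZIP60* (AT1G42990), which responds to unfolded proteins in the endoplasmic reticulum, had 595 reads and 43.8 FPKM in *dss1(I)*, against 1666 reads and 144 FPKM in WT, a log2 ratio of -1.70. *APX2* (AT3G09640), an ascorbate peroxidase that heat shock factors switch on, had 1 read in *dss1(I)*, against 11 in WT. *GOLS2* (AT1G56600), which makes the sugar galactinol, had 38 reads in *dss1(I)*, against 112 in WT (log2 ratio -1.75). *BAG5* (AT1G12060), a co-chaperone that the words of the rule did not reach, had 58 reads in *dss1(I)*, against 107 in WT (log2 ratio -1.09).

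Several small heat shock proteins are also made during seed maturation, so genes whose descriptions name seed storage, oleosin or late embryogenesis proteins were read beside them. These words also take in lipid-transfer proteins of a family named after a seed albumin, which need not be seed genes. Of 16 such genes in the table, 10 had a log2 ratio below 0 (62.5%), beside 51.4% of all 2762 genes and a mean of 79.7% for other genes of their own length groups. Their reads summed to 1605 in *dss1(I)* and 3199 in WT, with the storage protein gene *CRC* at 0 reads in *dss1(I)*, against 6 in WT. Most of the summed reads were of AT3G18280 (994 in *dss1(I)*, 1740 in WT) and AT2G37870 (125 in *dss1(I)*, 870 in WT). Both are of that lipid-transfer family, so neither the sum nor the 62.5% stands for seed genes alone. The 4 photosystem and chlorophyll-binding genes were all lower, with 391 reads in *dss1(I)*, against 807 in WT, beside 51.0% of the table lower by the same rule and a mean of 82.4% of other genes of their length groups below 0. Of these reads, *LHCB4.3* (AT2G40100) held 352 in *dss1(I)* and 715 in WT. The others, *PSAJ*, *PSAC* and *PSAI*, are genes of the chloroplast genome of 114 to 246 bases. The comparison thus rests mainly on 1 nuclear gene. Of 2 root genes, 1 was lower and 1 higher, with 81 reads in *dss1(I)*, against 129 in WT. Their part in the small heat shock protein values was not tested.

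By product names in the TAIR10.1 annotation, a count made after the data were seen, 12 of 47 small heat shock or HSP20-like genes are in the table (25.5%). The table holds 1 of 32 genes of the HSP70, HSP90 and HSP100 names (3.13%), 17 of 134 DnaJ genes (12.7%), 1 of 21 chaperonin genes (4.76%) and 4 of 60 peptidyl-prolyl isomerase genes (6.67%). These counts go by product name alone and need not equal the classes used above, where *NOV* was placed as HSP90-like and *CLPC2* as of the HSP100 type. Over all 27444 nuclear protein-coding genes the share is 9.77%. The table is a list of called genes, so these shares describe it and carry no test, and the genes outside it were not analysed here.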

How the data were processed

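Poly-A RNA of *dss1(I)* and WT seedlings was sequenced as 1 library each. Reads were filtered with fastp, mapped to TAIR10 with HISAT2 and assigned to genes with featureCounts by the authors. Their deposited table gives raw read counts, left as whole numbers. It also gives scaled counts from edgeR, a signal in which the authors brought both libraries to 1 size. The deposited FPKM divide each count by gene length and library total. The fold changes and p-values of the authors' own comparison, 3 columns, were not used. No other per-sample column (0) was left out.

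Log2 ratios were computed from scaled counts with a pseudocount of 1. Scaled counts of genes with no reads, deposited as rounding residues just above 0, were set to 0. A gene was called at a log2 ratio of -1 or less, or 1 or more, where its scaled count reached 10 in a library. Clopper-Pearson 95% intervals of the ratio cover counting error only. No test was run, since 1 library per genotype leaves no spread between samples. Members and lists were chosen with earlier results of these data known. The named genes are every small heat shock protein and HSP70/90/100 member, up to 5 of each direction in the other classes, and the listed heat response genes of the table. *BAG5* was added after its values were seen. Of 2762 identifiers, 2744 matched TAIR10.1 with the same start, end and strand, all 34 genes with the words among them. The calculation was tested on simulated data. Alternatives were other pseudocounts, filters, scalings, thresholds, length groups, the domain entry genes and another promoter window. The scripts ran in Python 3.11.15 (scipy 1.17.1, pandas 2.3.3, numpy 2.4.6, matplotlib 3.10.9).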

Additional observations from a re-analysis of the deposited data

How the results depend on the processing

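No paired analysis was possible because *dss1(I)* and WT are 1 library each. The 12 lower and 4 higher members (9 and 2 in the small class) stayed the same counts with a pseudocount of 0.1 and with library totals. A pseudocount of 5 gave 9 lower (6 in the small class) and no filter gave 13 (10 in the small class), with 4 and 2 higher in both. A minimum of 50 left 8 lower and 2 higher members in all, and 5 lower and 0 higher in the small class. A log2 threshold of 2 left 0 lower and 1 higher member, in the small class. Counting intervals wholly past 2-fold left 0 lower and 1 higher, the DnaJ gene AT4G36520. With the domain entry genes kept, 20 genes were lower and 12 higher, of which DnaJ made 5 and 7 and the others 6 and 2.

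Scaling by the median ratio of the table moves every log2 ratio by 1.02 before the pseudocount, and the members by 0.72 to 1.02 with it, because the table is a list of called genes with a median near -1. It left 1 lower member, in the small class, and 0 lower in the other classes. It gave medians of -0.12 over the members, -0.13 in the small class, 2.35 for *NOV*, 1.302 for DnaJ and -0.0507 for the others. It set *AtDSS1(I)* at -0.98, and turned *CPN10* to 0.0077 and *HSP17.7* to 0.0039. The window before the start codon, added after seeing the data, gave 70.0% in place of 40.0%. Splitting by length into 4 or 12 groups gave 71.2% and 71.6% for the members' lengths. Depth limits the rarest genes, since 3 reads are 0.272 per 1000000 in *dss1(I)* and 0.319 in WT.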

Other observations

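A pair of genes with a DnaJ domain entry but without the words of the rule also split in direction. AT3G13310 (1086 bases) had 358 reads and 29.9 FPKM in *dss1(I)*, against 655 reads and 64.2 FPKM in WT, a log2 ratio of -1.09 with an interval of -1.28 to -0.90. AT5G37440 (1352 bases) had 18 reads and 1.21 FPKM in *dss1(I)*, against 4 reads and 0.315 FPKM in WT, a log2 ratio of 1.73 with an interval of 0.35 to 3.97. These values were read after the data were seen.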
